A study of Homo sapiens with 2 samples.

Results

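The mRNAs described here encode serine-threonine kinases, lipid kinases, protein phosphatases and their regulatory subunits, as found among RNAs recovered with a catenin immunoprecipitation (IP) from MDA-MB-231 cells. Members were chosen by gene symbol alone, with a fixed pattern of kinase and phosphatase names from which PTPN14 was left out. The pattern found 53 of the 1658 gene symbols in the deposited peak list. MDA-MB-231 is a long-used line from a human breast tumour that is triple-negative and mesenchymal in character, and the labels name no treatment for either sample of the series. The titles give 1 library of the catenin IP (written B-catenin) and 1 of the input. The peak list belongs to the IP library, and values of the input on its own were not analysed here. With 1 library per group there is no replicate error and no test across samples, so every difference below is between genes within 1 library. How abundant an RNA was in the cells and how much of it the IP recovered cannot be told apart from its tags alone.

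Protein kinases attach phosphate to serine, threonine or tyrosine, and phosphatases remove it. Most serine-threonine phosphatases work as a few catalytic subunits that pair with many regulatory subunits, which set the substrate and the place of action. Beta-catenin is itself controlled by phosphorylation: kinases of its destruction complex mark it for degradation, and phosphatases can remove the mark. The symbol pattern also takes in proteins that are not serine-threonine enzymes. Of the 53 members, 28 were serine-threonine kinases, 1 was the calcineurin catalytic subunit gene PPP3CA, 13 were phosphatase regulatory subunits and 4 were tyrosine phosphatases. The rest were 2 regulatory subunits of protein kinase A, 2 lipid kinases, the dual-specificity phosphatase DUSP4, the exchange factor TRIO with its kinase domain, and MAPK1IP1L, which is not an enzyme.

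For each symbol, values are those of its listed transcript with the highest tag sum. Tags are the reads counted in a peak, and tags per kb divides them by the length of the peaks, the scale used here to compare genes. It covers only the stretches called as peaks, not whole transcripts. A tag sum says how many reads a gene's peaks held and follows their length, so an order by tags is not an order of levels. Positions are the deposited ones, numbered from nt 1. On minus-strand genes the region labels run against them, as described further on, and no source used here says whether label or position is the reversed one. The first or last peak therefore means the lowest- or highest-numbered. The fold is the enrichment of a peak as deposited by the authors, and a gene carries the fold of its highest peak. The 53 members had 91 peaks with 4203 tags, 3.14% of the 133739 tags in all peaks. Tags per member ran from 12 to 468 with a median of 47, against a median of 41 over all 1658 symbols. On the per-length scale the members' median was 31.9 tags per kb of peak, against 29.8 over all symbols, and 32 of 53 members lay above the latter. Their median fold was 8.10, against 7.56. A strong peak, with a score of at least 100 in the authors' unnamed score column, was held by 23 members (43.4%), and over all symbols by 39.4%. A fold of at least 10 was reached by 16 members (30.2%), and over all symbols by 30.3%. By these measures the kinase and phosphatase mRNAs lay close to the rest of the list.

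**Figure D1:**
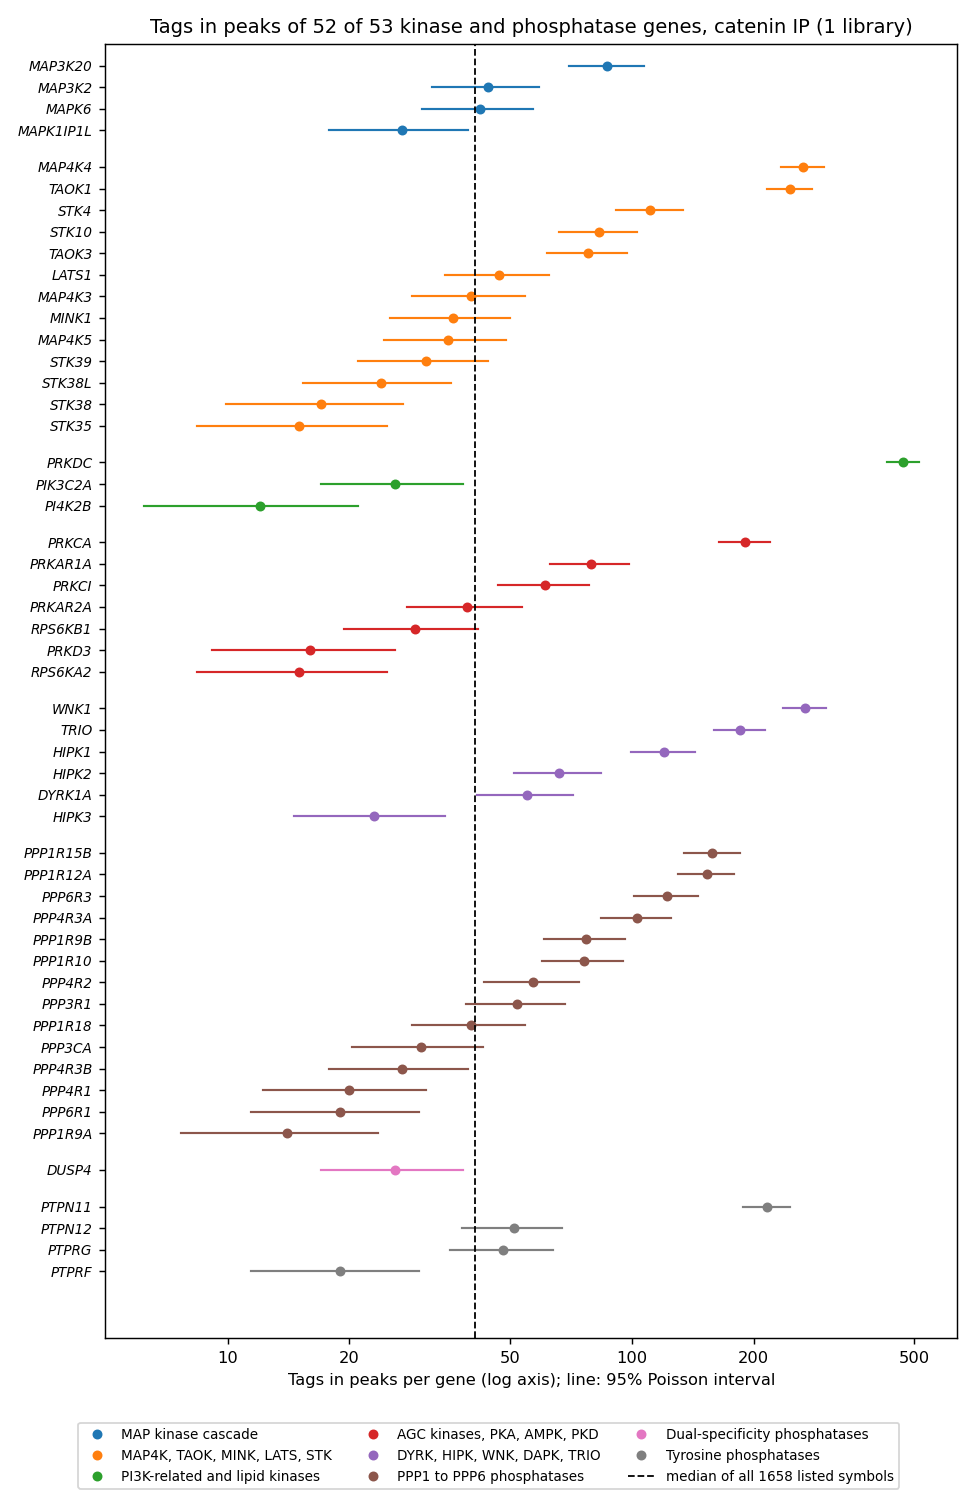
Tags in peaks of 52 of the 53 genes (x axis, log scale), grouped by family, with 95% Poisson intervals that cover counting error only; the dashed line marks the median of all 1658 symbols, 41 tags. PRKDC stands highest with 468 tags, and most families spread to both sides of the line.

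Tags followed the length of the peaks closely, with a Spearman rank correlation of 0.95 over the 53 members (a description across genes of 1 library). The 5 members with the most tags, PRKDC, WNK1, MAP4K4, TAOK1 and PTPN11, together held 34.8% of the members' tags. The fold rose less closely with tags, with a rank correlation of 0.68. The value of a single gene is imprecise where tags are few: 15 tags, as for RPS6KA2, have a Poisson interval of 8.40 to 24.7. These intervals cover counting error only, since no molecular identifiers are known that would show which tags came from separate RNA molecules.

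The MAP4K, TAOK, MINK, LATS and numbered STK symbols had 13 members with 1028 tags in 20 peaks. Most of these 13 encode Ste20 kinases, which act upstream of MAP kinase cascades and in the Hippo pathway, while LATS1, STK38 and STK38L are NDR kinases and STK35 belongs to neither group. MAP4K4, a Ste20 kinase that acts on the cytoskeleton and on JNK signalling, had the highest fold of all members, 31.84, with 265 tags (234 to 299) and 58.8 tags per kb. It ranked 29 by fold and 74 by tags among the 1658 symbols. Its 3 peaks were unequal. The peak at nt 278 to 1991 of ENST00000350878 held 147 tags at 85.8 tags per kb, that at nt 2225 to 4276 held 104 at 50.7, and that at nt 4915 to 5658 held 14 at 18.8. Only the first of these reached the fold of 31.84, and the other two stood at 15.25 and 5.21.

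TAOK1, a Ste20 kinase that can activate p38 signalling and acts on microtubules, had 246 tags (216 to 279) at 50.5 tags per kb and a fold of 24.89. A single peak at nt 522 to 3333 of ENST00000261716 carried 196 of these tags, or 79.7%. The remaining 3 peaks, between nt 3700 and 6403, had 13 to 19 tags each and folds of 7.52 to 8.68. Its relative TAOK3 had 1 peak, at nt 1801 to 3126 of ENST00000392533, with 78 tags, a fold of 16.79 and, at 58.8 tags per kb, nearly the same density as MAP4K4. The peaks of TAOK1 covered 4867 nt and that of TAOK3 1326 nt.

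The Hippo pathway kinases STK4 and LATS1 had lower densities than MAP4K4 and TAOK1. STK4 (MST1), which acts upstream of LATS1, had 111 tags (91.3 to 134) in 2 peaks, 31.3 tags per kb and a fold of 11. LATS1, which STK4 activates and which phosphorylates YAP, had 47 tags in 1 peak, 26.9 tags per kb and a fold of 7.52. The NDR kinases STK38 and STK38L, relatives of LATS1, had 17 and 24 tags, 25.1 and 27.7 tags per kb, with folds of 6.95 and 8.68. STK10, a lymphocyte-oriented kinase, had 83 tags in 2 peaks. MINK1, a close relative of MAP4K4, reached a fold of 15.63 on only 36 tags. MAP4K3, MAP4K5, STK39 and STK35 had 15 to 40 tags with folds between 6.34 and 10.42.

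The MAP kinase tiers below held 4 members and 200 tags. MAP3K20 (ZAK), which senses stalled ribosomes, had 87 tags (69.7 to 107) in 2 peaks and a fold of 7.80. MAP3K2, an activator of the ERK5 and JNK branches, had 44 tags and a fold of 8.10. MAPK6 (ERK3), an atypical MAP kinase, had 42 tags at 42.6 tags per kb but a fold of only 4.09. MAPK1IP1L had 27 tags. None of the 4 reached a fold of 10.

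PRKDC, the catalytic subunit of the DNA-dependent protein kinase that acts in DNA end joining, had the most tags of any member, 468 (427 to 512), and ranked 25 of 1658. Per length it had 48.7 tags per kb, and its highest fold was 23.73. The 4 peaks reached from nt 125 to 11680 of ENST00000314191. The longest, at nt 6447 to 10380, carried 212 tags, and the first, at nt 125 to 3712, carried 168. The peaks with 60 and 28 tags lay at nt 5194 to 6234 and nt 10633 to 11680. Its kinase domain is of the phosphoinositide 3-kinase type. The lipid kinases among the members had little signal. PIK3C2A, a class II phosphoinositide 3-kinase, had 26 tags at a fold of 6.95, and PI4K2B had 12 tags (6.20 to 21.0) at 5.79, the fewest tags of any member.

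Among the S6 kinase, PKA, PKC and PKD genes, PRKCA had the most tags, 190 (164 to 219) in 4 peaks. PRKCA is protein kinase C alpha, a calcium- and lipid-activated kinase. The peak at nt 94 to 3102 of ENST00000413366 held 119 tags at 39.5 tags per kb. The 3 others, between nt 3879 and 7998, held 14 to 32 tags at 22.9 to 26.6 per kb, and the fold was 8.10 at most. PRKCI, the atypical protein kinase C of the cell polarity complex, had 3 peaks with 61 tags in all and a highest fold of 6.37. PRKAR1A, a regulatory subunit of protein kinase A, was the densest member, with 79 tags in 1 peak at 64.3 tags per kb, while its fold of 5.45 ranked only 1354. PRKAR2A had 39 tags at 36.7 per kb and a higher fold of 9.50. RPS6KB1 (S6 kinase 1), PRKD3 and RPS6KA2 had 15 to 29 tags with folds of 4.05 to 8.10. No member of this family reached a fold of 10.

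The DYRK, HIPK and WNK kinases and TRIO had the highest family median of the fold (11.28), over 6 genes. Their median tag sum was 93, but their median density, 29.4 tags per kb, was close to that of all symbols. WNK1, a kinase that governs ion transport, had 268 tags (237 to 302) spread over 4 peaks between nt 1205 and 10567 of ENST00000340908. These held 99, 71, 45 and 53 tags, and the fold was highest, at 19.68, in the second. Per length WNK1 had 41.2 tags per kb. TRIO, an exchange factor for RAC1 and RHOA, had 185 tags (159 to 214), of which 102 lay in the peak at nt 2286 to 4880 of ENST00000344204. Its density was 33.5 tags per kb and its fold 12.73. HIPK1 to HIPK3, homeodomain-interacting nuclear kinases, had 120, 66 and 23 tags in turn, with folds of 12.73, 9.84 and 5.79. Per length they stood at 36.9, 24.8 and 22.4 tags per kb. DYRK1A, a dual-specificity kinase of nucleus and cytoplasm, had 55 tags in 3 peaks and a fold of 8.68.

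Of the serine-threonine phosphatase genes, 14 had peaks, and 13 of them encode regulatory subunits. PPP1R15B, which directs protein phosphatase 1 to the translation factor eIF2 alpha, had the most tags, 158 (134 to 185), at 53.9 tags per kb and a fold of 23.33. Its larger peak, at nt 925 to 2856 of ENST00000367188, held 124 tags. PPP1R12A, the myosin phosphatase targeting subunit, had 153 tags (130 to 179) in 1 peak at nt 340 to 3618 of ENST00000261207 and a fold of 17.94. Its density was 46.7 tags per kb. The genes PPP1R9B, PPP1R10 and PPP1R18 had fewer tags: 77 for the first (spinophilin), 76 for the second (the nuclear subunit PNUTS) and 40 for the third (phostensin). PPP1R18 had the lowest fold of all members, 3.25, and PPP1R9A (neurabin), with 14 tags, stood at 8.10.

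The regulatory subunits of protein phosphatases 4 and 6 formed a further set. PPP6R3 had 122 tags (101 to 146) in a single peak from nt 241 to 3058 of ENST00000393800, with a fold of 17.35, whereas PPP6R1 had 19 tags at 4.33. PPP4R3A had 103 tags (84.1 to 125) in 2 peaks and a fold of 12.16, and its paralog PPP4R3B had 27 (17.8 to 39.3) and 9.26. PPP4R2 and PPP4R1 had 57 and 20 tags. In calcineurin, the calcium-activated phosphatase, the catalytic gene PPP3CA had 30 tags at 25.1 per kb and the regulatory gene PPP3R1 had 52 at 39.5. Their folds were 6.95 and 5.80. Per length of called peak, PPP6R3 and PPP6R1 stood at 43.3 and 42.1 tags per kb, and PPP4R3A and PPP4R3B at 41.0 and 25.9. The value of PPP6R1 is imprecise, since it rests on 19 tags (11.4 to 29.7) over 451 nt, against 2818 nt for PPP6R3.

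Of the tyrosine phosphatases PTPN11 (SHP2), which links receptor tyrosine kinases to RAS, had the most tags, 216 (188 to 247), with 46.1 tags per kb and a fold of 17.94. Its first peak, at nt 49 to 2960 of ENST00000351677, carried 156 tags. PTPN12, a phosphatase that acts on focal adhesion proteins, had 51 tags at a fold of 5.98. The receptor phosphatase PTPRG had 3 small peaks with 16, 13 and 19 tags and a fold of 6.95, and PTPRF, a receptor phosphatase found at cell junctions, had 19 tags at 4.63. DUSP4, a nuclear phosphatase of MAP kinases, had 26 tags at 5.95.

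Regulatory subunits and catalytic genes differed in their values in this library, as a description with no test. The 16 members without catalytic function (15 regulatory subunits and MAPK1IP1L) had a median of 42.0 tags per kb, from 25.9 to 64.3. The 37 catalytic members had a median of 27.7, from 20.2 to 58.8, so the ranges overlap widely. Of the 16, 13 were subunits of the PPP phosphatases, while only 1 PPP member was catalytic. Role and gene family therefore cannot be told apart here. Median folds were 9.18 and 7.80. All 12 members with 3 or more peaks were catalytic, as were 37 of the 53 members as a whole. These 12 are 22.6% of the members, where 9.95% of all symbols had as many. Transcript length was not accounted for, so nothing is read from these shares. At a score of at least 50, 6 members still had 3 or more peaks, and at 100 there were 2. The share over all symbols was not counted at these thresholds. The folds also moved differently. In 70.3% of the 91 member peaks, and 70.1% of all 2440, the fold fell within 0.0051 of an integer times 0.5788, so that it moved in steps there. This held for 58 of the 71 peaks of catalytic members and for 6 of the 20 peaks of the others. All 18 peaks of the DYRK, HIPK, WNK and TRIO genes and all 4 of PRKDC lay on the steps. Whether the background entered folds on and off the steps in the same way was not tested, and folds of regulatory and catalytic members are therefore set side by side with that reservation.

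**Figure D2:**
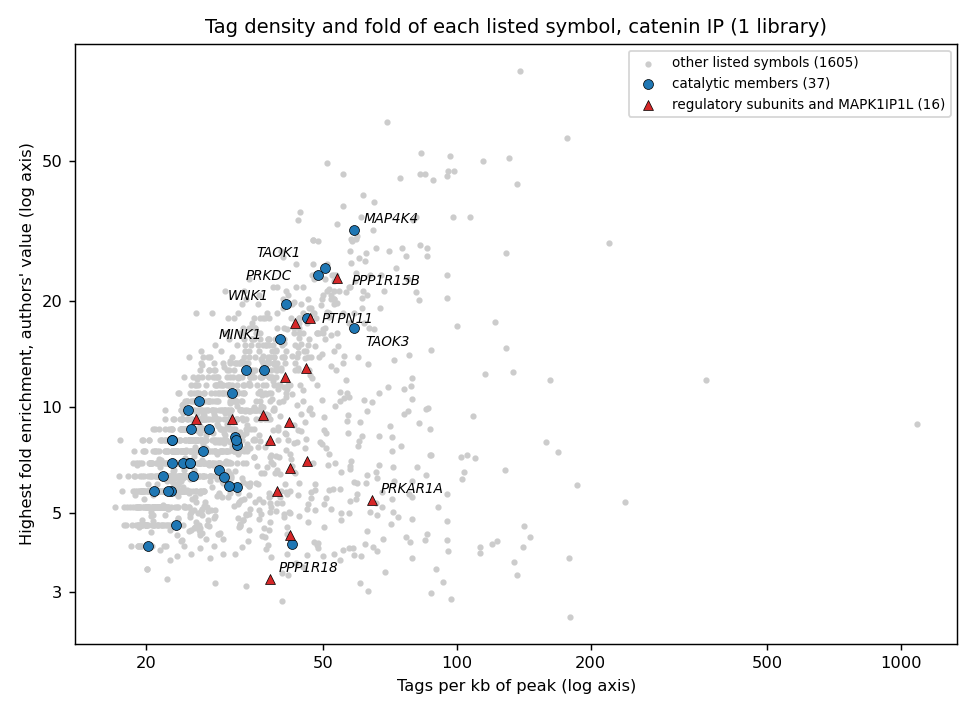
Tags per kb of peak (x axis, log scale) against the highest fold of each symbol (y axis, log scale) for 37 catalytic members (circles), 16 other members (triangles) and the other 1605 listed symbols (grey). MAP4K4 has the highest fold of the members, 31.84, and PRKAR1A the highest density, 64.3; the horizontal rows of points are the stepwise fold values.

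The 12 genes with 3 or more peaks differed in which peak held most of their tags, by the deposited numbering. The lowest-numbered peak had the most tags in 7 of 12 (58.3%), namely MAP4K4, TAOK1, WNK1, PTPN11, PRKCA, HIPK1 and PRKCI, and the highest-numbered in 1 (PTPRG). Over all 165 symbols with 3 or more peaks these shares were 44.8% and 21.8%, so the members' 7 of 12 rests on few genes. Of these members 9 were on the plus strand, with the lowest-numbered peak leading in 6, and for HIPK2, PRKDC and PTPN11 no strand was matched. Over all symbols the lowest-numbered peak led in 42.7% of 75 plus-strand and 45.2% of 62 minus-strand genes, and on the minus strand it may not be the one nearest the 5' end. In TAOK1, MAP4K4 and PTPN11 the leading peak held 79.7, 55.5 and 72.2% of the tags. In WNK1, HIPK2, PTPRG and DYRK1A no peak held more than 43.6%. HIPK2 had its peaks far apart: those with 23 and 25 tags lay at nt 94 to 911 and 953 to 1997 of ENST00000406875, and the peak with 18 tags at nt 12049 to 12843.

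**Figure D3:**
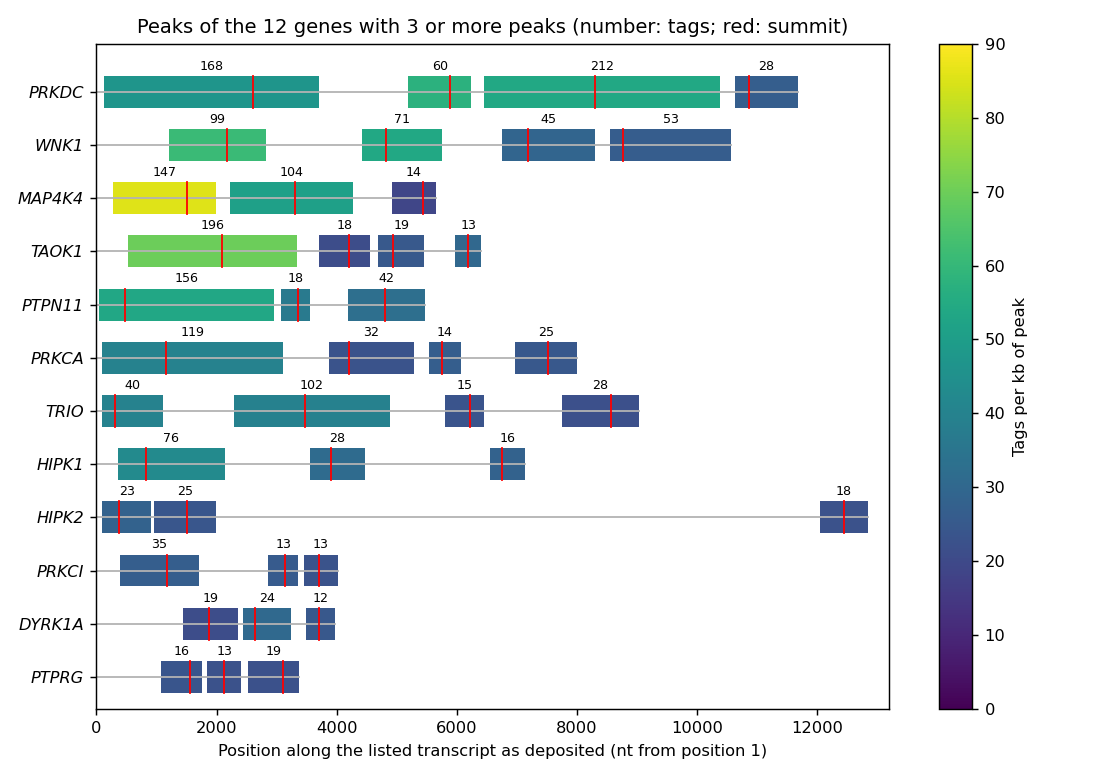
Peaks of the 12 members with 3 or more peaks along their transcripts (x axis, nt from position 1 as deposited); colour gives tags per kb of peak, numbers give tags and red lines the summits. MAP4K4 and TAOK1 have their densest peak at the lowest positions, and the peaks of PRKDC reach to nt 11680. For HIPK2, PRKDC and PTPN11 no strand was matched, so the direction of the axis is not known.

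The region labels of the peaks depended on the strand of the gene. Of the members, 25 were on the plus strand and 20 on the minus strand by the RefSeq promoter table for GRCh38.p14. That table held 45 of the 53 members, while the RefSeq gene table, which has no strand, held all of them. In 5 plus-strand members with both kinds of peak, 9 of 9 peaks labelled 3' untranslated, alone or with coding sequence, lay beyond every coding-only peak. In 2 minus-strand members, 2 of 2 lay before every coding-only peak. Over all listed genes with a matched strand the split was the same: 78 of 78 such peaks lay beyond the coding-only peaks on the plus strand, and 122 of 122 lay before them on the minus strand. Peaks labelled 5' untranslated and coding lay before the coding-only peaks in 31 of 31 cases on the plus strand and beyond them in 2 of 2 on the minus strand.

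Positions as such did not show this contrast. Over all listed genes the median start of a peak was nt 1048 on the plus strand (quartiles 303 and 2713) and nt 1184 on the minus strand (313 and 2714). The label shares did. The label 3' untranslated alone was given to 13.9% of 1025 plus-strand peaks (exact Clopper-Pearson interval 11.8 to 16.1%) and to 43.9% of 1026 minus-strand peaks (40.8 to 47.0%). The label 5' untranslated and coding was given to 16.8% and 0.78%. Of the 91 member peaks, 30 were labelled coding only (33.0%, 23.5 to 43.6%), against 39.7% of all 2440 peaks. The label 3' untranslated alone was given to 32 (35.2%, 25.4 to 45.9%), against 28.2%. Coding sequence with 3' untranslated region was the label of 19 (20.9%, against 19.7%). Coding sequence with 5' untranslated region was that of 7 (7.69%, against 8.65%), and both untranslated regions that of 3 (3.30%, against 2.30%). No source used here says how the labels were assigned, and neither labels nor positions of minus-strand members are read further.

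**Figure D4:**
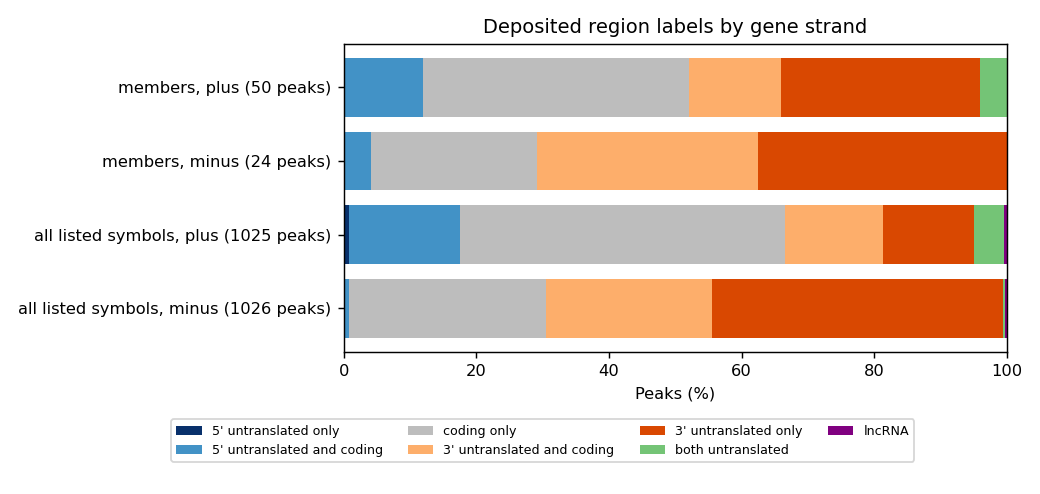
Share of peaks with each deposited region label (x axis, percent) for members and for all listed symbols, by gene strand. The label 3' untranslated alone covers 13.9% of all plus-strand peaks and 43.9% of all minus-strand peaks.

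In the 25 plus-strand members the labels could be set against the values. Of their 50 peaks, 20 were labelled coding only, with a median of 27.8 tags per kb, and 15 were labelled 3' untranslated alone, with 25.5. Over all plus-strand genes these medians were 27.1 and 25.3. All 4 peaks of TRIO and all 3 of PTPRG were labelled coding only. WNK1 had 3 coding peaks followed by 1 in the 3' untranslated region with 53 tags. TAOK1 and PRKCA each had 3 peaks labelled 3' untranslated, with 13 to 32 tags apiece, against 196 and 119 tags in their first peaks. The 9 members with a matched strand and 3 or more peaks were on the plus strand. The strands of the other 3 (HIPK2, PRKDC and PTPN11) were not matched, and in HIPK2 and PRKDC the peaks labelled 3' untranslated lay at lower positions than the coding-only peaks, as on minus-strand genes. No contrast between strands in the number of peaks is therefore read.

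Several members had peaks on more than 1 listed transcript, and the choice of transcript mattered for some. In all, 33 members had 2 or more listed transcripts, up to 13 for MAP4K4 and 9 for HIPK1. For 10 of the 33 all transcripts held equal tags. In others the lowest was far below the highest: PPP1R12A ranged from 19 to 153 tags, TRIO from 28 to 185, HIPK1 from 28 to 120 and MAP4K4 from 90 to 265. PRKDC (463 to 468), WNK1 (260 to 268) and PRKAR1A (78 to 79) hardly moved. No member shared a peak of the same start, end and tags with another symbol.

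The members were also counted against the annotated genes of the same names. The RefSeq table holds 296 protein-coding symbols that fit the pattern, of which 53 had a peak (17.9%, 13.7 to 22.8%). Of all 20056 protein-coding symbols, 8.11% had a peak. Since members are by definition listed genes, and transcript length and abundance were not accounted for, nothing is read from the difference. By family, 13 of 34 MAP4K, TAOK, MINK, TNIK, LATS and numbered STK symbols were listed and 6 of 17 in the DYRK, HIPK, WNK, DAPK and TRIO group. In the group of AGC kinases, PKA subunits, AMPK and PKD it was 8 of 36. In the phosphatase families PPP1 to PPP6 it was 14 of 77, and among PI3K-related and lipid kinases 3 of 22. The lowest shares were those of tyrosine phosphatases (4 of 37), MAP kinase cascade symbols (4 of 48) and dual-specificity phosphatases (1 of 25).

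**Figure D5:**
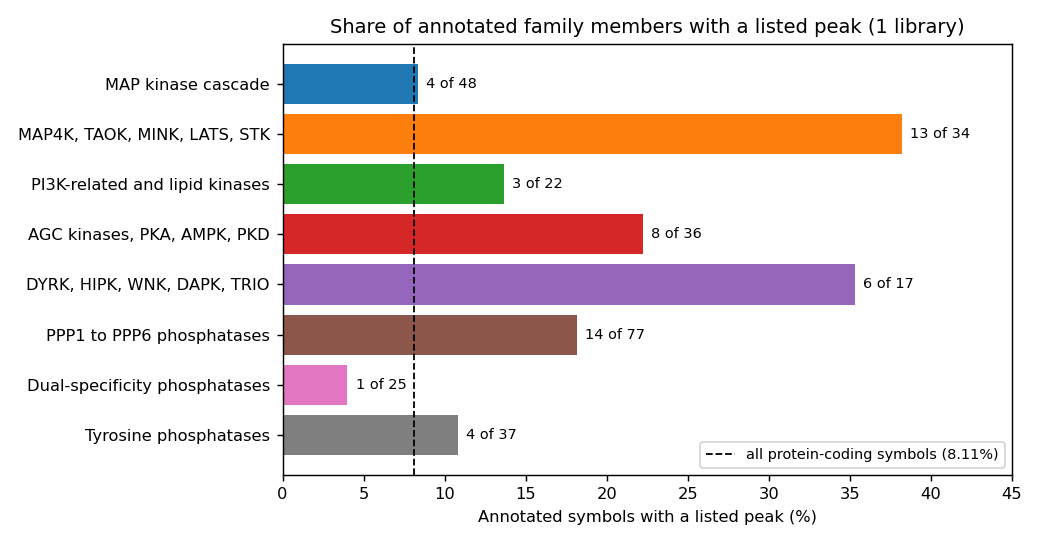
Share of annotated protein-coding symbols of each family with a listed peak (x axis, percent; numbers give listed of annotated); the dashed line is the share over all protein-coding symbols, 8.11%. The group of MAP4K, TAOK, MINK, LATS and STK symbols stands highest with 13 of 34 and dual-specificity phosphatases lowest with 1 of 25.

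The counts of single subfamilies were small and are given beside the 8.11% of all protein-coding symbols, with no test between them. Peaks were listed for 3 of 4 HIPK (interval 19.4 to 99.4%), 2 of 3 TAOK (9.43 to 99.2%) and 3 of 5 MAP4K symbols (14.7 to 94.7%). For DYRK it was 1 of 5, for WNK 1 of 4, for DAPK 0 of 3 and for PIK3 1 of 16. For MAP2K, the middle tier of the MAP kinase cascade, it was 0 of 7 (interval 0 to 41.0%), and for numbered MAPK symbols 1 of 13 (7.69%), so neither lies apart from the share of all symbols. Protein phosphatase 4 had 4 of 7 symbols listed (18.4 to 90.1%) and protein phosphatase 6 had 2 of 4 (6.76 to 93.2%). Protein phosphatase 2A, a major cellular phosphatase tied to the turnover of beta-catenin, had 0 of 16. Its interval of 0 to 20.6% includes the share of all symbols. Of the 11 catalytic PPP symbols 1 was listed (9.09%, 0.23 to 41.3%), and of the other 66 PPP symbols 13 (19.7%, 10.9 to 31.3%), intervals that overlap. For protein kinase A, 2 of 4 regulatory and 0 of 3 catalytic symbols were listed, too few to set apart. The table holds only RNAs that passed the threshold of the authors, so a symbol without a peak may still have been bound or expressed.

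In the KEGG pathways that the authors joined to the transcripts, 27 members were among the 601 listed symbols with an entry (4.49%). The MAPK signalling pathway held 13 of them among its 27 listed genes (48.1%), where the symbol pattern itself takes in MAP kinase names. In the Wnt pathway, where beta-catenin acts, 3 of the 24 listed genes (12.5%) were members: PRKCA and the calcineurin genes PPP3CA and PPP3R1. In the Hippo pathway there were 2 of 25 (LATS1 and PRKCI), and in the adherens junction pathway 1 of 27 (PTPRF, with 19 tags), 3.70% and so near the share over all entries.

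Genes that work with these enzymes but carry other names were counted from hand-made lists, to be read beside the 8.11% of all protein-coding symbols with a peak. These lists, and those of the next paragraph, were made with earlier results of these data known. Transcript length and abundance were not accounted for, so nothing is read from how their shares differ from 8.11%. Of 24 Hippo regulators and effectors 9 were listed (37.5%), led by the atypical cadherin FAT1 (176 tags in 6 peaks, fold 11.58) and the transcription factor TEAD1 (148 tags, fold 19.68). YAP1, the effector that LATS1 phosphorylates, had 18 tags. Of 16 partners of protein phosphatase 2A and its STRIPAK complex, which binds Ste20 kinases, 8 were listed (50%), led by the phosphatase inhibitor SET (190 tags, fold 4.17) and the striatin STRN3 (81 tags). RAS and MAPK regulators were listed in 6 of 22 cases (27.3%) with 15 to 32 tags each, the most on SPRED1 and RASA1 (32 and 25). PI3K and mTOR regulators were listed in 4 of 26 (15.4%), with 13 to 36 tags, the most on FOXO3 (36) and then GAB2 and TSC2 (16 each).

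Other serine-threonine kinases, outside the symbol pattern, gave 41 listed genes of 129 (31.8%), with a median of 50 tags, 33.3 tags per kb and a fold of 8.10. The members' medians were 47, 31.9 and 8.10, so both sets had nearly the same medians. The highest of these were CDK12, a kinase of transcription elongation (252 tags, fold 31.84), and SLK, a Ste20 kinase (214 tags). Other phosphatases had 7 of 57 listed (12.3%), with a median of 14 tags; CTDSPL2 led with 51 and SYNJ2 followed with 30. Of markers for the line, 3 of 8 basal and mesenchymal markers were listed (FN1, EGFR and ZEB1, with 413, 318 and 17 tags), with VIM and CD44 not among them. For luminal epithelial markers it was 0 of 8, for immune and blood markers 0 of 5 and for fibroblast markers 1 of 4 (COL1A1, 18 tags). With lists this short beside a share of 8.11% over all protein-coding symbols, the counts of 0 say nothing about the line.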

How the data were processed

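RNA recovered with a catenin IP from MDA-MB-231 cells was sequenced with an input, 1 library each; per the labels' protocols it was extracted with phenol-alcohol and sheared. The submitters' processing notes name hg18. No source used here names the aligner, peak caller, annotation or background library. The deposited file lists 6195 peaks on 4439 transcripts, with whole-number tag counts per peak deposited by the authors, a fold enrichment ratio per peak per the file headers, and a deposited score whose column name was lost. Fold and score are the authors' own values and only describe, rank or filter peaks. Library depth is unknown. Positions are numbered from 1 as deposited; no source used here says from which end on minus-strand genes.

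Each symbol took the transcript with the most summed tags (ties: lowest identifier). Intervals are exact Poisson or Clopper-Pearson at 95%. No test was made. The values of 1 member, and pathway counts that rest on it, are not reported here; it is counted in the totals. Symbols were matched to RefSeq (GRCh38.p14): 1638 of 1658, and 53 of 53 members; its gene table gave names and gene types, and its promoter table strand, for 45 members; no coordinates were used. Members, families and lists were chosen with earlier results of these data known. Genes chosen for fuller values were the 12 with the most tags, the 8 highest by density and by fold, those with 3 or more peaks and the leader of each family. For some of these an interval or a density is not given. Other members are named with shorter values, and the other lists by their 2 genes with the most tags, except YAP1, TSC2, VIM, CD44 and the markers. Procedures were checked on simulated data (Python 3.11.15, pandas 2.3.3, SciPy 1.17.1).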

Additional observations from a re-analysis of the deposited data

How the results depend on the processing

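Of 54 alternative values, 44 stayed within 1.5 times the value reported or, for shares, within its 95% interval, and 10 moved further. The 44 include settings that could move little. Merging symbols with identical peaks could change nothing, since no member shared a peak with another symbol. A fold of at least 4 left 52 of the 53 members. A score of at least 100 left 23 members, 7.77% of the annotated symbols, with a median of 103 tags and a median fold of 12.73. It left 29 of the 75 other signalling genes and 2 members with 3 or more peaks. By construction fewer peaks are kept. The 7.77% is not to be set beside the 8.11% of all protein-coding symbols, which was counted without a score threshold. Of all 1658 listed symbols, 653 (39.4%) reached this score, and of the members 43.4%. At a score of 50 or more there were 6 members with 3 or more peaks. Counting each transcript on its own gave 139 and put 79.7% of peaks on the fold steps; catalytic members alone gave 81.7%. The share of member peaks labelled coding only was 40% for plus-strand and 25% for minus-strand members, settings chosen after seeing the data, as were the thresholds for other signalling genes and for 3 or more peaks. The annotated share was not run per transcript or for catalytic genes, which needs roles for unlisted symbols. No paired analysis was possible because the IP and the input have a single library each. Many values rest on few tags: the median member peak had 29 and the weakest 12.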
